A study of Mus musculus with 16 samples.

Results

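Connexins are the proteins of gap junctions, and 6 of their genes, known from astrocytes, oligodendrocytes and neurons, were followed in the mouse striatum. They were chosen by name: Gja1, Gjb6 and Gjb2 of astrocytes, Gjb1 and Gjc3 of oligodendrocytes, and Gjd2 of neurons. The 6 genes stood among 20730 genes listed in each library, and each had reads in all 16 libraries and passed the filter on low values in every comparison. The mice were adult C57BL/6N animals, and all 8 received an adeno-associated virus (AAV) that put the ribosomal protein Rpl22 with a hemagglutinin tag into astrocytes (RiboTag). In 4 mice, called PMCA mice, a second AAV carried hPMCA2w/b, a human calcium pump of the plasma membrane used to lower calcium signals, and in the other 4, called control mice, it carried a control protein. From each whole striatum, the RNA on precipitated tagged ribosomes (IP) and the RNA of the cleared lysate (input) were sequenced apart, which gave 4 PMCA IP, 4 control IP, 4 PMCA input and 4 control input libraries. Neither the promoters of the viruses nor the identity of the control protein is given in the sources used here.

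Connexin subunits assemble into a channel of the cell membrane, and docking with a channel of a neighbouring cell lets ions and small molecules pass between the cells. Astrocytes are coupled into networks through Gja1 (Cx43), Gjb6 (Cx30) and, at lower levels, Gjb2 (Cx26), and oligodendrocytes express, among others, Gjb1 (Cx32) and Gjc3 (Cx29), of which Gjc3 is not known for making gap junctions. Gjd2 (Cx36) forms the electrical synapses of neurons, among them those between parvalbumin interneurons. Gjb2 is also known from the leptomeninges.

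The libraries held 48.1 to 55.1 M reads in PMCA IP, 46.8 to 58.5 M in control IP, 32.3 to 40.9 M in PMCA input and 33.1 to 40.2 M in control input. All levels are the deposited log2 CPM (reads scaled to the size of the library), and a difference of 1 on this scale is a doubling. Checked against its label, the IP was rich in astrocyte RNA: Aldh1l1, the defining marker, lay 3.34 above input in PMCA mice and 3.18 in control mice. All 16 astrocyte markers listed rose, with medians of 3.17 in PMCA mice and 3.13 in control mice. The IP was not free of other RNA: Mog of oligodendrocytes lay at 6.66 ± 0.11 in PMCA IP and 6.60 ± 0.56 in control IP, and Rbfox3 of neurons at 6.13 ± 0.34 in PMCA IP and 6.20 ± 0.24 in control IP (SD, n = 4). Foxj1 of ependymal cells lay at 6.92 in PMCA IP against 4.12 in PMCA input, and at 7.03 in control IP against 4.41 in control input. Among 8 ependymal and choroid plexus markers, 5 rose and 3 fell in PMCA mice (median 2.16). In control mice 5 of them rose and 2 fell (median 2.18). Cx3cr1 of microglia and Cldn5 of endothelium were lower in IP than in input on average (log2 fold -4.05 and -4.05 in PMCA mice, -5.42 and -4.36 in control mice). The IP library of PMCA mouse 4 stood apart in both: Cx3cr1 lay at 5.19 there, against 2.22 to 2.36 in the other PMCA IP libraries and 7.10 in its own input, and Cldn5 had 2.83 CPM on the linear scale, against 0.737 to 1.02 CPM in the other PMCA IP libraries and 17.7 CPM in its own input. Without that mouse the log2 folds in PMCA mice were -4.76 for Cx3cr1 and -4.52 for Cldn5. Rpl22, the tagged gene, lay at 8.11 ± 0.11 in PMCA IP and 9.80 ± 0.15 in control IP, and at 6.72 ± 0.086 in PMCA input and 7.60 ± 0.14 in control input. Atp2b2, the mouse gene of this pump, lay at 9.87 ± 0.20 in PMCA IP and 9.52 ± 0.27 in control IP (log2 fold 0.35, limma adjusted p = 0.113). In every comparison of treatments the pump and the lower Rpl22 level therefore cannot be told apart. In tissue RNA, fewer cells of a type and less RNA per cell cannot be told apart either.

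Gja1 lies at chr10:56377300-56390419 on the plus strand (mm10, RefSeq annotation of GRCm38.p6). Gjb6 (chr14:57123301-57133611) and Gjb2 (chr14:57098602-57104702) are neighbours on the minus strand, 18598 bases apart with 0 annotated genes between them. Gjb2 overlaps the long noncoding RNA Gm32912, which was not analysed here. Gjd2 lies at chr2:114009601-114014378 and Gjc3 at chr5:137950992-137963098, also on the minus strand. The RefSeq (GRCm38.p6) windows around the starts of these 4 genes are printed because Gja1 is the main astrocyte connexin, Gjb2 and Gjd2 are the members that differed between treatments, and Gjb6 is the neighbour of Gjb2 that did not pass the test. Each holds 250 bases before and 50 after an annotated transcript start, 5′ to 3′ on the gene's strand, and for Gjd2 that start lies inside the annotated span of the gene. The windows lie at chr10:56377050-56377349 (plus strand), chr14:57133562-57133861, chr14:57104653-57104952 and chr2:114013570-114013869 (minus strand) in the order printed.
Gja1: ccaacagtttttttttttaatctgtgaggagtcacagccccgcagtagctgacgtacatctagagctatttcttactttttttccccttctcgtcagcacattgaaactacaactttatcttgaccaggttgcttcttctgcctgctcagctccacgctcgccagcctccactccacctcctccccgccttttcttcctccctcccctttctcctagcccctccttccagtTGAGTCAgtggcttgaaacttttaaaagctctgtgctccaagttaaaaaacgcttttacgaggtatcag
Gjb6: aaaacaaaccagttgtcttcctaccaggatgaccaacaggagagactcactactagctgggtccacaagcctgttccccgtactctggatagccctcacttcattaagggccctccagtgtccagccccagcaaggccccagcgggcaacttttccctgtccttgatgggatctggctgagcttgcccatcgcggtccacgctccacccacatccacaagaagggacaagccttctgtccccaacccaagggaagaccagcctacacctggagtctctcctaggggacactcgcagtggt
Gjb2: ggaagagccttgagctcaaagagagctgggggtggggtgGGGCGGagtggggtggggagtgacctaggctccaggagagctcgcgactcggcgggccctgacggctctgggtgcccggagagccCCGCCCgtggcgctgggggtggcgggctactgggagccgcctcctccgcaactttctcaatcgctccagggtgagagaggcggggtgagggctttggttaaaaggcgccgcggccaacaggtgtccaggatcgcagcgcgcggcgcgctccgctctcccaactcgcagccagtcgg
Gjd2: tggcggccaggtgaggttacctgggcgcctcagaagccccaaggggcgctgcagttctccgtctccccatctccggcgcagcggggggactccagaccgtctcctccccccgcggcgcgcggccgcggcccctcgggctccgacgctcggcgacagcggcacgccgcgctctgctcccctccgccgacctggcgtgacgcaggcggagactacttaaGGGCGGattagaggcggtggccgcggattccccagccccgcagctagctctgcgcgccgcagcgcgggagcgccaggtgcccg
Capitals mark matches, on either strand, to the GC box GGGCGG, to the AP-1 element TGANTCA, to the letters TATAA and to the palindromic NFI element. The Gja1 window held TGAGTCA, which began 19 bases before the start (position -19). TGANTCA was present in 7.81% of all 32851 mouse promoter windows of this length. The Gjb2 window held 2 matches to GGGCGG, at positions -211 and -126, and the Gjd2 window held 1, at -33. GGGCGG occurred in 35.7% of all windows. No match to the 4 motifs was in the Gjb6 window, whereas TATAA occurred in 24.9% and the NFI element in 0.807% of all windows. The share of G and C was 70% for Gjb2, 75% for Gjd2, 57.3% for Gjb6 and 47.7% for Gja1, against a median of 52.7% over all windows. ACAAT and CANNTG, found in 31.0% and 72.3% of all windows, were searched as well and are not capitalised. These matches describe the letters of the windows, and binding was not measured.

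The comparison of IP with input asked which connexin transcripts were enriched on tagged astrocyte ribosomes. The astrocyte connexins Gja1, Gjb6 and Gjb2 rose in the IP of both treatments, by 2.36 to 3.06 on the log2 scale, which is 5.13-fold to 8.35-fold. In PMCA mice Gjc3 rose as well, by 0.30. Of the 6 members, 4 rose and 0 fell in PMCA mice, where 37.4% of all 16345 genes tested rose and 39.3% fell. In control mice 3 rose and 0 fell, where 39.1% of 16072 genes rose and 38.4% fell. Gjb1 and Gjd2 passed the test in neither treatment. The libraries of IP and input did not overlap for 4 members in PMCA mice, against 71.4% of all genes, and for 3 in control mice, against 72.4%. The part of ependymal RNA in the rises of Gja1, Gjb6 and Gjb2 was not tested.

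Gja1 encodes Cx43, the principal connexin of astrocytes. It lay at 10.18, 10.27, 10.18 and 10.10 in the IP of PMCA mice 1 to 4, against 7.17, 7.21, 7.12 and 7.10 in their inputs. It lay at 10.13, 10.40, 10.35 and 10.14 in the IP of control mice 1 to 4, against 7.26, 7.20, 7.13 and 7.19 in their inputs. Every IP library lay above every input, and within a mouse the gap spanned only 2.99 to 3.07 in PMCA mice and 2.87 to 3.22 in control mice. The rise was 3.04 in PMCA mice (SE 0.054, limma adjusted p = 5.39e-11) and 3.06 in control mice (SE 0.075, adjusted p = 4.46e-10).

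Gjb6 encodes Cx30, a second astrocyte connexin. Its level was 7.27, 7.21, 7.16 and 6.87 in PMCA IP, against 4.51, 4.53, 4.40 and 4.41 in PMCA input. In control mice it was 6.87, 7.43, 7.53 and 6.94 in IP, against 4.43, 4.65, 4.74 and 4.30 in input. The IP values of control mice 1 and 4 and of PMCA mouse 4 were the low ones, and all still lay above every input. The rise was 2.66 in PMCA mice (SE 0.083, adjusted p = 9.08e-10) and 2.66 in control mice (SE 0.15, adjusted p = 5.92e-08).

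Gjb2 encodes Cx26 and had fewer reads, 94 to 193 in an input library and 562 to 1038 in an IP library. The PMCA IP libraries held 4.19, 4.16, 4.22 and 4.40, against 1.81, 1.75, 2.09 and 1.74 in PMCA input. The control IP libraries held 3.61, 3.91, 3.93 and 3.72, against 1.53, 1.37, 1.45 and 1.39 in control input. The rise in IP was 2.39 in PMCA mice (SE 0.10, adjusted p = 7.65e-09) and 2.36 in control mice (SE 0.10, adjusted p = 7.79e-09), and the fractions did not overlap. Dcn, the defining marker of leptomeningeal fibroblasts, went the other way: it lay at -2.43 ± 0.14 in PMCA IP and 3.05 ± 0.085 in PMCA input, and at -2.05 ± 0.33 in control IP and 2.80 ± 0.15 in control input (SD, n = 4). Over the whole leptomeningeal list, 2 of 8 markers rose and 6 fell in PMCA mice and 3 rose and 5 fell in control mice. The summed level of the list was higher in IP, with 190.5 to 221.7 CPM against 118.4 to 144.8 CPM in PMCA input. In control mice it was 177.7 to 256.2 CPM in IP against 115.2 to 167.0 CPM in input. The part of leptomeningeal RNA in the rise of Gjb2 was not tested.

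Of the oligodendrocyte connexins, Gjc3 in PMCA mice alone passed the test between IP and input. Gjb1 encodes Cx32, a connexin of myelin. It lay at 4.31, 4.51, 4.80 and 4.62 in PMCA IP against 4.37, 4.44, 4.33 and 4.41 in PMCA input (log2 fold 0.17, SE 0.094, 95% interval -0.036 to 0.38, adjusted p = 0.115). It lay at 4.03, 4.10, 4.40 and 5.34 in control IP against 4.49, 4.37, 4.59 and 4.64 in control input (-0.05, SE 0.24, interval -0.58 to 0.47, adjusted p = 0.840). Control mouse 4 was the high one, and without it Gjb1 was 0.30 lower in control IP than in control input (log2 fold -0.30, adjusted p = 0.0282). Without PMCA mouse 1, the rise in PMCA mice passed the test too (0.25, adjusted p = 0.0328).

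Gjc3 encodes Cx29, found along myelinated fibres. PMCA IP libraries held 6.00, 6.05, 6.10 and 6.24, against 5.68, 5.98, 5.82 and 5.72 in PMCA input. All 4 IP values lay above all inputs, and the rise of 0.30 passed the test (SE 0.078, interval 0.12 to 0.47, adjusted p = 0.00541). Control IP libraries held 5.49, 5.59, 5.87 and 6.53, against 5.70, 5.73, 5.88 and 6.01 in control input (0.04, SE 0.19, adjusted p = 0.858), so that 1 IP library lay above all inputs and 2 lay below them. When CPM were taken from total reads without the authors' scaling factors, the median of all genes moved to -0.35 in PMCA mice and -0.28 in control mice, and the rise of Gjc3 in PMCA mice was lost (-0.0090, adjusted p = 0.918). Most of the oligodendrocyte markers listed rose in IP in both treatments, whereas neither Gjb1 nor Gjc3 passed the test in control mice. In PMCA mice 12 of 15 rose and 0 fell in IP (median 0.57), and in control mice 8 rose and 1 fell (median 0.54), on the authors' scaling. Their summed level was 7016 to 8301 CPM in PMCA IP, 5843 to 12757 in control IP, 5680 to 6913 in PMCA input and 6281 to 7297 in control input, and the highest was again control mouse 4. The part of oligodendrocyte RNA in the IP values of Gjb1 and Gjc3 was not tested.

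Gjd2, the neuronal connexin, was the least read member, with 166 to 325 reads a library. PMCA IP libraries held 1.91, 1.94, 2.01 and 2.14, against 2.30, 2.32, 2.14 and 2.01 in PMCA input (log2 fold -0.19, SE 0.11, interval -0.44 to 0.055, adjusted p = 0.137). Control IP libraries held 2.68, 2.68, 2.62 and 2.67, against 2.86, 2.35, 2.58 and 2.38 in control input (0.12, SE 0.12, interval -0.14 to 0.39, adjusted p = 0.368). The fractions overlapped in both treatments. The difference between IP and input in PMCA mice passed the test without PMCA mouse 4 (-0.30, adjusted p = 0.0461). With CPM from total reads it passed as well (-0.50, adjusted p = 0.00172), but there the median of all genes had itself moved to -0.35. Markers of interneurons were high in the IP: 8 of 11 rose and 2 fell in PMCA mice (median 1.63), and 10 rose and 1 fell in control mice (median 1.94). Pvalb was the marker that fell in both, by 1.91 in PMCA mice and by 0.87 in control mice on the log2 scale. The part of interneuron RNA in the IP level of Gjd2 was not tested.

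**Figure D1:**
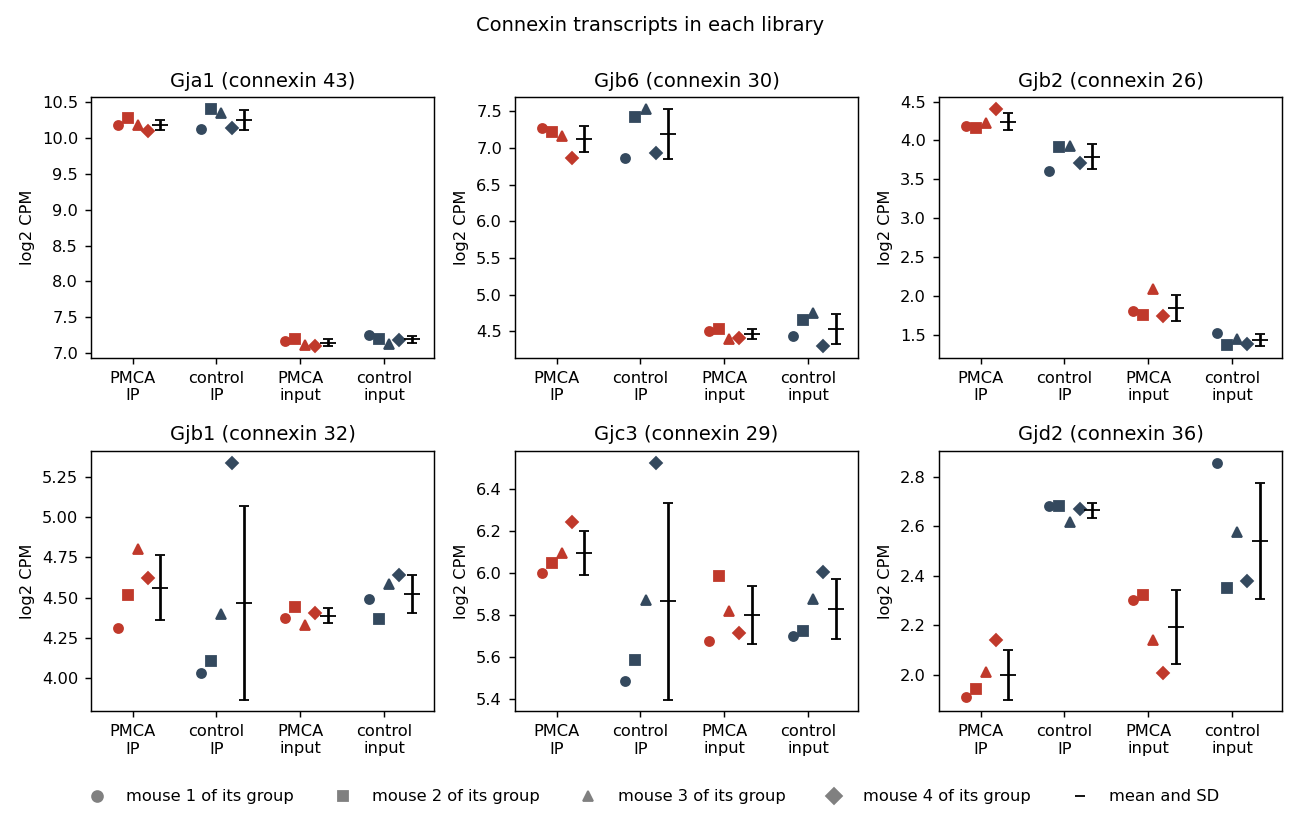
Log2 CPM of each of the 6 connexin genes (vertical axis, log scale, a range of its own per panel) in the PMCA IP, control IP, PMCA input and control input libraries. Points are mice, with 1 shape per mouse of a group, and bars give mean and SD (n = 4): Gja1, Gjb6 and Gjb2 sit far higher in IP, Gjb2 is higher and Gjd2 lower in PMCA IP, and control mouse 4 has the highest Gjb1 and Gjc3 in IP.

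**Figure D2:**
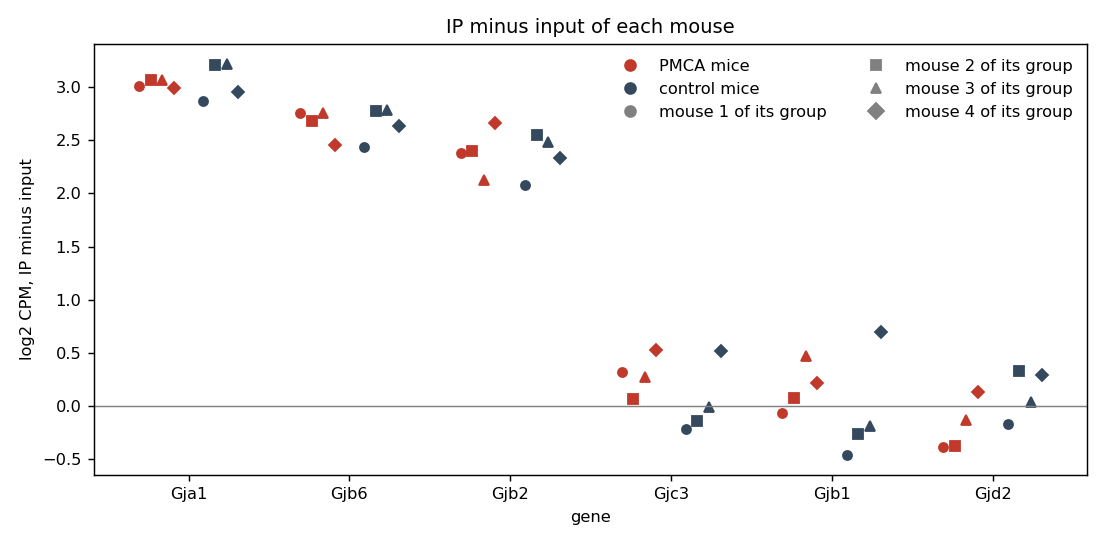
IP minus input of the same mouse in log2 CPM (vertical axis) for the 6 connexin genes, with PMCA mice to the left of control mice and 1 shape per mouse of a group. The astrocyte genes Gja1, Gjb6 and Gjb2 lie between 2.08 and 3.22 in every mouse, whereas Gjc3, Gjb1 and Gjd2 lie between -0.46 and 0.69.

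The comparison of PMCA with control mice uses the same libraries as the one of IP with input. It asked whether connexin levels differed between mice given the pump and mice given the control protein. Calcium signals were not measured in these libraries. In the IP, Gjb2 was 1.36-fold higher and Gjd2 was lower by 0.66 on the log2 scale in PMCA mice, while Gja1, Gjb6, Gjb1 and Gjc3 did not pass the test. Of the 6 members, 1 rose and 1 fell, where 9.54% of all 15748 genes tested rose and 10.1% fell. Both of these members had groups that did not overlap, which held for 25.5% of all genes. In the input 0 of 6 passed, against 0.442% of 16306 genes, and limma with voom weights also called 0. At an unadjusted p under 0.05, 2 of 6 members passed in the input, against 19.3% of all genes.

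The IP levels of Gjb2 were 4.24 ± 0.11 in PMCA mice and 3.79 ± 0.16 in control mice (SD, n = 4), and the lowest PMCA library (4.16) lay above the highest control library (3.93). The log2 fold was 0.45 (SE 0.095, interval 0.24 to 0.66, limma adjusted p = 0.0120). In the input Gjb2 lay at 1.85 ± 0.17 in PMCA mice and 1.43 ± 0.075 in control mice. Those groups did not overlap either, but the log2 fold of 0.42 missed the threshold (SE 0.12, interval 0.14 to 0.69, adjusted p = 0.129). Groups of the input did not overlap for 9.74% of all genes. The animal numbers in the labels fall into a lower and a higher set, and control mouse 4 carries a higher number in its title and a lower one in its source name. Over 16 alternative settings the IP fold lay between 0.38 and 0.49, with adjusted p from 0.00346 to 0.0681. The call was lost with the set of animal numbers as a block, placed by source name (0.38, adjusted p = 0.0679), and without the mice of high Xist, an RNA of the inactive X chromosome in control 4 and PMCA 3 (0.43, adjusted p = 0.0681). Placed by title, within the set of lower animal numbers the IP difference was 0.35 (2 PMCA and 3 control mice), and within the higher set it was 0.59 (2 PMCA mice and 1 control mouse).

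Some astrocyte, microglial and endothelial markers rose in PMCA IP as Gjb2 did, whereas leptomeningeal and mural cell markers went both ways. Of 16 astrocyte markers, 4 rose and 0 fell in PMCA mice (median 0.19, against -0.01 over all genes), and their summed level was 56035 to 68193 CPM in PMCA IP and 43769 to 57404 CPM in control IP. Aldh1l1 rose by 0.44 (SE 0.085, adjusted p = 0.00793). Of the 8 leptomeningeal markers, 5 were tested, of which 3 rose and 1 fell (median 0.67), while the summed level of the list overlapped, with 190.5 to 221.7 CPM in PMCA IP and 177.7 to 256.2 in control IP. Dcn had too few reads in the IP to be tested. Of 10 microglial markers, 4 rose and 0 fell (median 0.82), with a summed level of 82.2 to 132.8 CPM in PMCA IP and 65.7 to 84.1 CPM in control IP. Of 8 endothelial markers, 4 rose and 0 fell (median 0.72), and their summed levels of 11.5 to 17.2 CPM in PMCA IP and 8.56 to 10.1 CPM in control IP did not overlap. Of 7 mural cell markers, 2 rose and 2 fell (median -0.55), and their summed levels of 91.0 to 102.9 CPM in PMCA IP and 76.0 to 85.7 CPM in control IP did not overlap either. Without PMCA mouse 4, whose microglial and endothelial sums were the highest, again 4 microglial and 4 endothelial markers rose and 0 fell, and Gjb2 was 0.39 higher on the log2 scale (adjusted p = 0.0170). No marker of these 5 lists was at 0 in all 4 libraries of a group. In the input, where the log2 fold of Gjb2 was 0.42, 2 of 16 astrocyte markers rose and 0 fell (median 0.12). Of all genes there, 0.362% rose. From the leptomeningeal, microglial, endothelial and mural lists 0 passed in input (medians 0.25, 0.29, 0.17 and 0.04). Dcn lay at 2.988 to 3.174 in PMCA input and 2.612 to 2.985 in control input, without overlap and without passing. Such a lack of overlap held for 9.74% of all genes in input. The part of these cells in the difference of Gjb2 was not tested.

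Gjd2 lay at 2.0 ± 0.10 in PMCA IP and 2.66 ± 0.032 in control IP (SD, n = 4). The highest PMCA library (2.14) lay below the lowest control library (2.62). The log2 fold was -0.66 (SE 0.094, interval -0.87 to -0.45, adjusted p = 0.00309), and it stayed past the threshold in each of 16 alternative settings (-0.74 to -0.63, adjusted p from 0.000510 to 0.0256). Within the sets of animal numbers it was -0.73 (lower) and -0.60 (higher). In the input Gjd2 lay at 2.19 ± 0.15 in PMCA mice and 2.54 ± 0.23 in control mice, again without overlap, and the log2 fold of -0.35 did not pass (SE 0.13, interval -0.64 to -0.060, adjusted p = 0.192).

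Interneuron markers and general neuronal markers were mostly lower in PMCA IP as well, and markers of striatal projection neurons mostly did not pass. Of 11 interneuron markers 0 rose and 7 fell (median -0.41), and their summed level was 1219 to 1337 CPM in PMCA IP and 1447 to 1525 CPM in control IP. Of 10 general neuronal markers 0 rose and 7 fell (median -0.35; 2821 to 3376 CPM in PMCA IP and 3476 to 4387 in control IP). Rbfox3, the defining marker of that list, overlapped between treatments. Among 10 striatal projection neuron markers, 0 rose and 1 fell (median -0.11). Their summed levels overlapped, with 2349 to 3561 CPM in PMCA IP and 2249 to 3995 CPM in control IP. Pvalb, the defining marker of the interneurons known for Gjd2 junctions, lay at 2.31 ± 0.15 in PMCA IP and 3.69 ± 0.14 in control IP (log2 fold -1.38, SE 0.11, adjusted p = 0.000289). No marker of these lists was at 0 in all 4 libraries of a group. In the input 0 markers of these lists passed the test. The part of neuronal RNA in the difference of Gjd2 was not tested. Gjd2 overlaps the annotated long noncoding RNA A530058N18Rik, whose reads cannot be told apart from those of Gjd2 if counting ignored the strand. That gene lay at -0.33 ± 0.34 in PMCA IP and 0.030 ± 0.15 in control IP, where the groups overlapped, and at 1.18 ± 0.13 in PMCA input and 1.17 ± 0.18 in control input.

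Gja1 and Gjb6, the principal astrocyte connexins, did not pass the test between treatments in either fraction. Gja1 was at 10.18 ± 0.073 in PMCA IP and 10.26 ± 0.14 in control IP (log2 fold -0.07, SE 0.090, interval -0.27 to 0.13, adjusted p = 0.610). In the input it was at 7.15 ± 0.048 in PMCA mice and 7.19 ± 0.051 in control mice (-0.04, SE 0.040, interval -0.13 to 0.043, adjusted p = 0.568). Gjb6 was at 7.13 ± 0.18 in PMCA IP and 7.19 ± 0.34 in control IP (-0.06, SE 0.15, interval -0.41 to 0.28, adjusted p = 0.802), and its input difference was -0.07 (interval -0.27 to 0.13, adjusted p = 0.719). These intervals leave room for a change of Gja1 by up to 0.27 and of Gjb6 by up to 0.41 on the log2 scale in the IP. The groups overlapped for both genes in both fractions.

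The oligodendrocyte connexins spread more widely in control IP than in PMCA IP. Gjb1 lay at 4.56 ± 0.20 in PMCA IP and 4.47 ± 0.60 in control IP (log2 fold 0.09, SE 0.25, interval -0.46 to 0.65, adjusted p = 0.818). Gjc3 lay at 6.10 ± 0.11 in PMCA IP and 5.87 ± 0.47 in control IP (0.23, SE 0.19, interval -0.20 to 0.66, adjusted p = 0.426). Without control mouse 4 the difference of Gjc3 passed the test (0.45, adjusted p = 0.0198), and that of Gjb1 was 0.39 without passing (adjusted p = 0.0713). Within the set of lower animal numbers Gjc3 was 0.38 and Gjb1 0.24 higher in PMCA IP, and within the higher set, which holds control mouse 4, Gjc3 differed by -0.36 and Gjb1 by -0.63. In the input the differences were -0.13 for Gjb1 (adjusted p = 0.297) and -0.03 for Gjc3 (adjusted p = 0.883). Gjb1 lies on the X chromosome (chrX:101376376-101385629), and the mice of high Xist, control 4 and PMCA 3, held the highest Gjb1 of their group in IP. In input control 4 was again the highest of its group and PMCA 3 the lowest. Of the 15 oligodendrocyte markers 0 rose and 0 fell in PMCA IP against control IP (limma, median 0.06), and their mean level per library was 7.77, 7.89, 8.01 and 7.98 in PMCA IP and 7.40, 7.55, 7.86 and 8.56 in control IP.

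**Figure D3:**
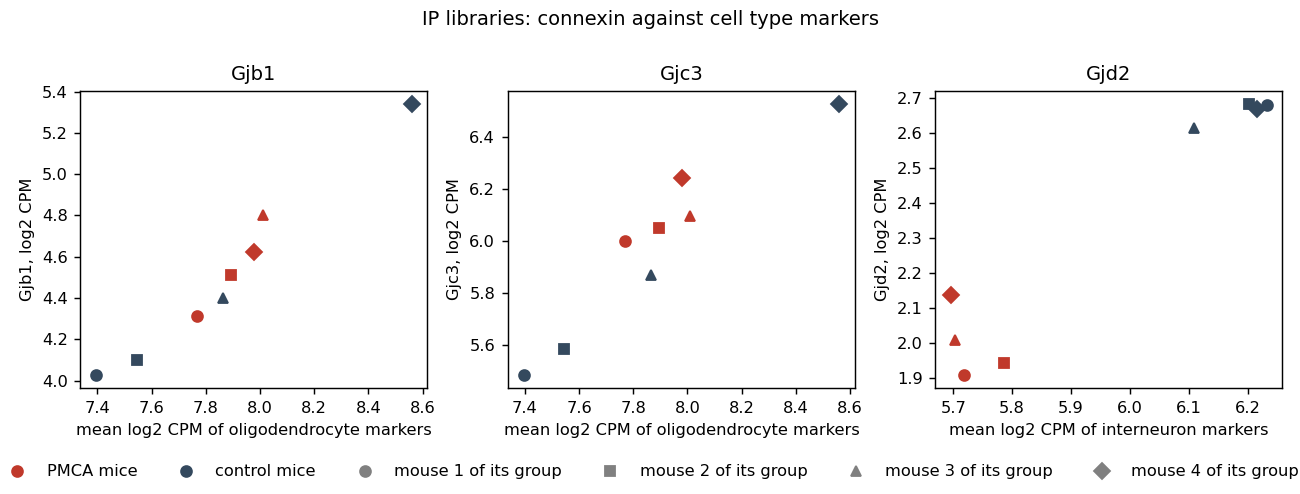
Log2 CPM of Gjb1, Gjc3 and Gjd2 (vertical axes) against the mean log2 CPM of oligodendrocyte markers (left and middle) or interneuron markers (right) in the 8 IP libraries, with 1 point per library. Control mouse 4 has the highest Gjb1, Gjc3 and oligodendrocyte markers, and the 4 PMCA libraries lie below the 4 control libraries for both Gjd2 and interneuron markers.

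Whether the PMCA difference itself differed between IP and input was tested over all 16 libraries. Of the 6 members, 0 passed in limma with or without voom weights, against 2.03% of 16673 genes tested, and 0 had an unadjusted p under 0.05, against 16.3% of all genes. The difference was 0.03 for Gjb2 (SE 0.14, interval -0.27 to 0.33, adjusted p = 0.943), whose folds were 0.45 in IP and 0.42 in input. It was -0.31 for Gjd2 (SE 0.16, interval -0.65 to 0.025, adjusted p = 0.353). For Gja1 and Gjb6 it was -0.03 and 0.0047, and for Gjb1 and Gjc3 0.23 and 0.26, with adjusted p of 0.625 or above. A larger fold of Gjd2 in IP than in input was therefore not shown.

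Apart from Gja1 and Gjb6, which shared an order, each gene had its own order of the 4 group means. Gja1 and Gjb6 were highest in control IP, followed by PMCA IP, control input and PMCA input, and within each fraction the neighbours did not pass a test. Gjb2 was highest in PMCA IP, followed by control IP, PMCA input and control input, and its inputs missed the threshold. PMCA IP was not tested against control input, nor control IP against PMCA input. Gjd2 was highest in control IP, followed by control input, PMCA input and PMCA IP, and none of these neighbours passed the test of their difference. Gjb1 and Gjc3 spanned at most 0.30 between their 4 group means.

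Balances between astrocyte connexins within a library remove shared shifts, and are given without a test. Gjb2 minus Gja1 was not among the planned balances, and Gjb2 had already been found to differ between treatments. How often other gene pairs lack overlap was not computed. Gjb2 minus Gja1 was -5.94 ± 0.18 in PMCA IP (-6.12 to -5.69) and -6.46 ± 0.046 in control IP (-6.51 to -6.42), without overlap. In the inputs it was -5.30 ± 0.19 in PMCA mice (-5.45 to -5.02) and -5.76 ± 0.068 in control mice (-5.83 to -5.68), again without overlap (SD, n = 4). Gjb2 minus Gjb6, which was planned, was -2.89 ± 0.29 in PMCA IP (-3.08 to -2.47) and -3.40 ± 0.19 in control IP (-3.60 to -3.22). In the inputs it was -2.61 ± 0.21 in PMCA mice and -3.10 ± 0.22 in control mice, and neither fraction overlapped. Gjb6 minus Gja1 was -3.06 ± 0.13 in PMCA IP and -3.07 ± 0.20 in control IP, which overlapped. The genes differ in length, so a balance compares groups and not the levels of the genes with each other. Of the reads of the 6 members, Gjb2 took 1.34% ± 0.17 in PMCA IP and 0.940% ± 0.012 in control IP. Gjc3 minus Gjb1, the oligodendrocyte balance, was 1.53 ± 0.17 in PMCA IP (1.30 to 1.69) and 1.40 ± 0.14 in control IP (1.19 to 1.48), with control mouse 4 the lowest of all.

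**Figure D4:**
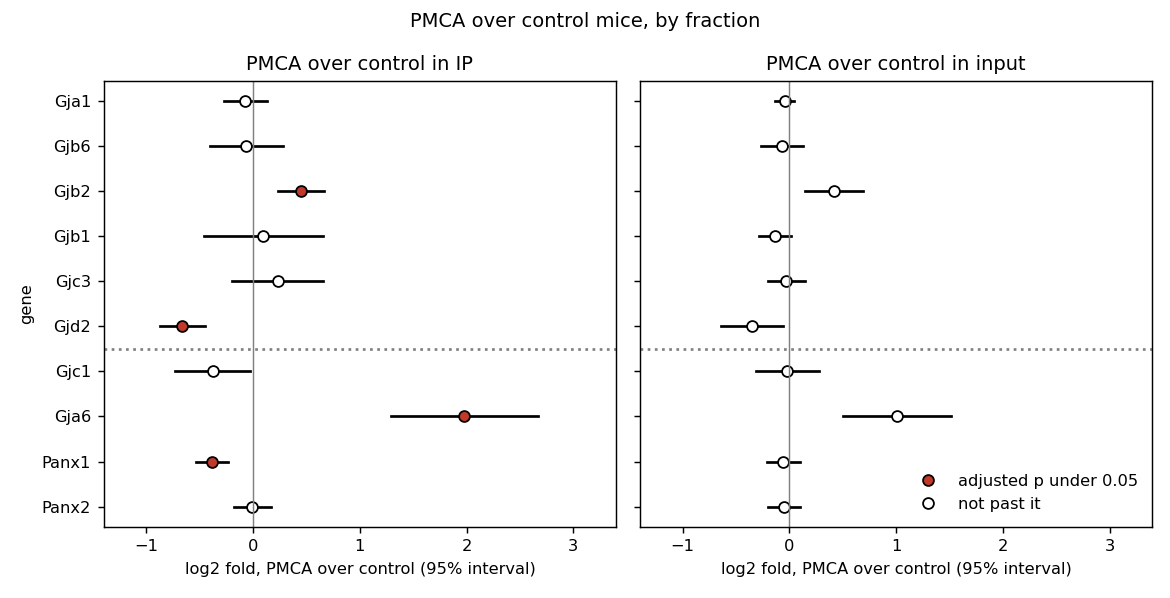
Log2 fold of PMCA over control mice (horizontal axis) with its 95% interval in IP (left) and input (right), for the 6 members above the dotted line and 4 further connexins and pannexins below it. Filled points have an adjusted p under 0.05: Gjb2 and Gja6 (higher) and Gjd2 and Panx1 (lower) in IP, and none in input.

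Of 14 other connexin genes listed, 6 had enough reads in IP and input to be tested, and the other 8 had at most 14 reads in any library. The vascular connexin Gja4 fell in IP against input, by 2.22 in PMCA mice and by 2.07 in control mice on the log2 scale. Gja5, another vascular connexin, fell by 1.07 in PMCA mice (adjusted p = 0.0123), and the difference of -0.69 in control mice missed the threshold (adjusted p = 0.0561). Gjc1 fell by 0.80 in PMCA mice and by 0.44 in control mice, while Gjd3 fell by 2.09 in PMCA mice and by 2.90 in control mice. Gja6 fell by 1.11 in control mice (adjusted p = 0.00843).

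Among these 6, Gja6 was the only one past the threshold between treatments in IP (1 of 6 rose and 0 fell). Its reads were few, namely 65, 32, 59 and 39 in PMCA IP, and 13, 8, 17 and 12 in control IP. All PMCA libraries lay above all control libraries (log2 fold 1.98, SE 0.31, adjusted p = 0.00396), and the same held in input without passing (log2 fold 1.0, SE 0.23, adjusted p = 0.0814). Gja6 is X-linked and overlaps another annotated gene. The sources used here do not say how reads of overlapping genes were assigned, so the value of Gja6 is uncertain to that extent.

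Pannexins form single-membrane channels and, in vertebrates, are not known for gap junctions as connexins are. Of 3 listed, 2 had enough reads to be tested. Panx1 lay at 3.72, 3.65, 3.75 and 3.67 in PMCA IP and 4.09, 4.12, 4.00 and 4.13 in control IP. It fell in PMCA IP without overlap (log2 fold -0.39, SE 0.069, adjusted p = 0.00598), and the input difference was -0.06 (SE 0.072, adjusted p = 0.706). The difference between these folds missed the threshold (-0.33, SE 0.094, adjusted p = 0.0849). Panx2, a pannexin of neurons, differed by -0.0066 in IP and -0.05 in input, and both pannexins were lower in IP than in input in both treatments. Of 13 junction scaffolds and connexin partners, 0 rose and 1 fell in PMCA IP against control IP (median 0.07): Ctnnb1, which encodes the adherens junction protein beta-catenin, fell by 0.23 (log2 fold; SE 0.068, adjusted p = 0.0367). Tjp1 (ZO-1), which binds the tail of Cx43, was 0.23 higher without passing (SE 0.075, adjusted p = 0.0535). In IP against input, 7 of the 13 rose and 2 fell in PMCA mice and 8 rose and 2 fell in control mice. Tjp1 rose by 1.60 in PMCA mice and by 1.51 in control mice.

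The genes most like each connexin were found by Pearson's r of log2 CPM over the 16 libraries among 16669 genes. These values are descriptions, since the libraries share mice, fractions and treatments. For Gja1, Gjb6 and Gjb2 the gap between IP and input sets most of the size of r. Gjb1, Gjc3 and Gjd2 had small gaps, with log2 folds of -0.19 to 0.30. For Gjb1 and Gjc3 the IP library of control mouse 4 was the highest of all (5.34 and 6.53). Gja1 ran most like Oat, an ornithine aminotransferase (0.999), Slc39a12, a zinc transporter (0.999), and S1pr1, a sphingosine phosphate receptor (0.999). Gjb6 ran most like Aldoc, a glycolytic aldolase (0.998), Acsl3, an acyl-CoA synthetase (0.998), and Paqr8 (0.997). Gjb2 ran most like Slc13a3, a dicarboxylate transporter (0.996), Maml2, a Notch coactivator (0.995), and Ednra, an endothelin receptor (0.995), ahead of Gja1 (0.976) and Gjb6 (0.968). For Gjb1 the first were Kcnk13, a potassium channel (0.969), Gpr62, an orphan receptor (0.948), and Serpind1, a protease inhibitor (0.926). For Gjc3 they included Prr5l (0.966) and Mog, a protein of the myelin surface (0.926). Gjd2 had no gene above 0.924, and its first were Gde1 (0.924), Asna1 (0.919) and Afg3l2 (0.894).

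With each library set against its group mean, only the spread between libraries of the same group was left, which includes differences in precipitation and counting noise. Gja1 then ran most like Raver2 (0.903), S1pr1 (0.893) and Mut (0.893), and Gjb6 most like Aldoc (0.959), Cables1 (0.940) and Acsl3 (0.940). Gja1 and Gjb6 correlated with each other at 0.694, and with Gjb2 at 0.276 and 0.218. Gjb2 had lower values throughout, with Cep85 (0.815), Vdr (0.803) and Parp16 (0.796) first. Gjb1 ran most like Bche (0.979), Kcnk13 (0.974) and Tmeff2 (0.971), and Gjc3 most like Jam3 (0.976) and Ermn (0.973). Gjb1 and Gjc3 correlated at 0.920, and control mouse 4 was the point farthest out for both. For Gjd2 the first was Epx (0.934), followed by a gene that the files list under a date and by Ranbp10 (0.800).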

How the data were processed

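Per the submitters' processing notes, the authors used STAR, HTSeq, edgeR and limma with the mm10 build. The sources used here do not give their versions or roles, the annotation or the use of strand. The authors deposited log2 CPM values of 20730 genes per library, with a prior count of 0.25 on average and the authors' scaling factors (0.89 to 0.92 in IP, 1.10 to 1.12 in input). Undoing these gave whole reads in every library within 0.001 (largest deviation 3.9e-08), from which read numbers and library totals were computed.

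The 5 comparisons were fitted on the deposited log2 CPM with limma (3.58.1, R 4.3.3), two-sided, moderated by empirical Bayes with a trend of variance on mean. P-values were adjusted after Benjamini-Hochberg over all genes tested, with a threshold of 0.05. A gene was tested with at least 10 reads, at median library size, in 4 libraries and 15 reads in all. Replicates are separate mice. IP and input of a mouse come from 1 animal by the labels, and the deviations of each of the 8 pairs from their group means correlated (r = 0.11 to 0.33 over 16673 genes). The animal block was an alternative and changed 0 of 18 member calls. Only the fit of PMCA against control in IP was checked on simulated reads, with planted changes larger than those of the members called. The other fits were not checked this way.

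Members and gene lists were chosen with earlier results of these data known. Named are the 6 members, listed connexins, pannexins and partners past the threshold in any comparison, the 3 genes most like each member (some of these and of the listed genes are not reported here), the defining cell type markers and Rpl22 and Atp2b2. Levels were not compared between genes, since no transcript lengths were used here. All 6 members matched a RefSeq symbol. Animal numbers form a lower and a higher set, whose meaning the labels do not give, and control mouse 4 carries 2 numbers, 1 in each set.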

Additional observations from a re-analysis of the deposited data

How the results depend on the processing

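Planned edgeR and DESeq2 fits were not run, because the deposited values are on a log2 scale, although the recovered reads would have allowed them. Limma with voom weights on the recovered reads was added after seeing the data. The set of animal numbers by source name could not be a block in control mice, which all fall in 1 set. Over 426 alternative values of the 6 members, 385 kept direction and call, 33 changed sign, 6 passed newly and 2 lost the call with the same sign (Gjb2 between treatments in IP, with the block by source name and without both mice of high Xist). Of the 33, 1 lost the call as well (Gjc3 for IP over input in PMCA mice, with total reads). The 426 values are not all separate checks. For IP over input, leaving out the mice of high Xist is the same fit as leaving out control mouse 4 or PMCA mouse 3. In PMCA mice the blocks by title and by source name are also the same fit. Blocks by set or animal cannot change the fold of IP over input. Marker lists without PMCA mouse 4 were added after seeing the data. The count of members called between treatments in IP was 1 instead of 2 with the block by source name and without both mice of high Xist. Leaving out 1 mouse gave 2 to 3 calls there, 0 in input, 3 to 4 for IP over input in control mice, 4 to 5 in PMCA mice and 0 for the difference between fractions. The animal as a block (replicate block) changed 0 of 18 calls. Genes called over all genes fell to 1699 (block by source name) and 1189 (without the mice of high Xist), against 3088, for PMCA against control IP.

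Signs changed for the values that follow, and the cause was not tested. PMCA against control in IP, Gjb6 was 0.0049 and Gjb1 -0.072 with the block by title, and 0.049 and -0.054 by source name. In input, Gjc3 was 0.0024 by source name and 0.024 without the mice of high Xist. With total reads, Gjc3 was -0.24 and Gjd2 -0.15 for IP over input in control mice, Gjb1 was -0.13 and Gjc3 -0.0090 in PMCA mice, and Gjb6 was -0.025 for the difference between fractions. Without the mice of high Xist, Gjc3 was -0.12 for IP over input in control mice and Gjb6 -0.034 for the difference between fractions. Leaving out 1 mouse, PMCA against control ranged from -0.17 to 0.049 (Gjb6) and -0.051 to 0.39 (Gjb1) in IP, and from -0.15 to 0.0030 (Gjb6) and -0.090 to 0.032 (Gjc3) in input. IP over input in control mice ranged from -0.30 to 0.081 (Gjb1) and -0.12 to 0.12 (Gjc3). The difference between fractions ranged from -0.091 to 0.026 (Gja1), -0.070 to 0.075 (Gjb6) and -0.062 to 0.12 (Gjb2). Read numbers limit Gjd2 and input Gjb2 most, and reads are not independent molecules.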
